A study of Mus musculus with 61 samples.

Results

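The mouse genes whose symbol is Zfp followed by a number make up a large share of the zinc-finger genes of the mouse, and 314 of them were followed here through oocytes, early embryos and embryonic stem cells with and without ZFP708. A gene was taken where its normalised read count was at least 1 in 3 or more libraries of any condition, and Zfp708 itself, some of its relatives (Zfp459, Zfp595, Zfp712, Zfp738, Zfp748, Zfp759, Zfp455 and Zfp808), and Zfp57, Zfp445, Zfp42 and Zfp352 were set aside. Of the 336 numbered Zfp genes among the 18396 genes of the table, 12 of these 13 were present and set aside, 324 remained and 314 passed. The 10 others included Zfp663, Zfp114, Zfp783 and Zfp872, which reached 1 in only 2 libraries of their best condition, with highest values of 2.13, 4.08, 3.95 and 5.75. Members that only just passed, with 3 libraries, had highest values such as 4.05 for Zfp300, 3.58 for Zfp488 and 3.72 for Zfp697. Other relatives of Zfp708 stayed among the members. Zfp85, which the authors name as the closest mouse paralog, was 1 of them and lay in a chromosome 13 cluster (67355854 to 67927937).

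Each of the 61 libraries held 1 germinal vesicle (GV) oocyte, 1 zygote, 1 2-cell embryo, a pool of 10 blastocysts or a culture of mouse embryonic stem cells (mESCs). Oocytes, zygotes, 2-cell embryos and blastocysts labelled as ZFP708 maternal null (KO; 7, 7, 8 and 3 libraries) were set against wild type (WT; 7, 7, 7 and 3). The mice came from 1 founder line made with CRISPR/CAS9, in which a small deletion in the KRAB region of Zfp708 shifts the reading frame, and the labels give the embryos no paternal genotype. The mESCs were 3 libraries of ZFP708 maternal/zygotic null cells (KO), derived from blastocysts, and 3 of WT cells, and E14 cells, an established mouse ESC line, with FLAG-tagged ZFP708 overexpressed (OE) were compared with wild-type E14 controls, 3 libraries each. The OE cells had been transfected, selected and sorted, steps that cannot be told apart from ZFP708 because nothing says that the controls shared them. Independently derived mESC lines are described for another assay, and nothing says how many mothers, lines or cultures stood behind these libraries, so the p-values measure the spread between these samples, which may be technical.

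Most proteins of this family read DNA through arrays of zinc fingers, short loops held by a zinc ion, each of which touches a few bases. Many carry in addition a KRAB box, a short domain that binds TRIM28, the co-repressor that brings in histone methyltransferases, deacetylases and DNA methylation, and KRAB zinc-finger proteins are best known for silencing retrotransposons and imprinted loci in the early embryo and in ESCs. Members without a KRAB box include transcription factors of pluripotent cells, partners of chromatin complexes, and proteins that bind RNA or ribosomes.

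By their translated coding sequences, 180 of the 314 members were KRAB zinc-finger genes and 118 had zinc fingers and no KRAB box. In 14 neither a KRAB box nor a finger was matched, Zfp616 had a KRAB box and no finger that was matched, and 1 had no coding transcript. Only 1 spacing pattern of 2 cysteines and 2 histidines was searched, so fingers of another form were not matched and the 14 may hold some. The KRAB members held a median of 12 fingers and those without KRAB 8. The genes sat in clusters: 85 members (52 with KRAB) lay on chromosome 7, 35 on chromosome 17 and 23 on chromosome 8. The KRAB-A box, which the choice of members did not use and which was found in these 180 and Zfp616, is shown here for 4 members the results turn on, with the codons of its leucine-tyrosine core in capitals (NCBIM37, the build of the files, from Ensembl annotation):
Zfp677 (chr17:21530143-21530265, plus strand): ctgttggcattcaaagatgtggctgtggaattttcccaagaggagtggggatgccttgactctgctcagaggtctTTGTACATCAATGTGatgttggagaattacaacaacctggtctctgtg
Zfp735 (chr11:73503197-73503319, plus strand): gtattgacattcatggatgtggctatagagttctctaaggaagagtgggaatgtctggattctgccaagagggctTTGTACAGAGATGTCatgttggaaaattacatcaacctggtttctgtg
Zfp809 (chr9:22039467-22039589, plus strand): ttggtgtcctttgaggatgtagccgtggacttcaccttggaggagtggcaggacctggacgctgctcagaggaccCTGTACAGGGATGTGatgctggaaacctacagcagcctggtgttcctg
Zfp819 (chr7:50867356-50867478, plus strand): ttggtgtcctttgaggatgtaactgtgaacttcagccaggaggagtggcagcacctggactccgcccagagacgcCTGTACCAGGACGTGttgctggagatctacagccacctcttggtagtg
The stretches were 123 bases long, each within an exon of the coding sequence. Zfp809 and Zfp819 were identical at 78.9% of these bases and Zfp677 and Zfp735 at 78.0%, whereas Zfp735 and Zfp819 shared 59.3%. Such likeness matters for the counts, because a read of 75 bases cannot be placed where 2 genes match. It was limited overall: 62 members shared at least 1 window of 75 bases with another gene, 30 shared over 10% of theirs and 7 over 50%, and none had Zfp708 as its main partner (0 members).

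The libraries of oocytes, zygotes and 2-cell embryos held 2486334 to 4844699 reads in genes, and those of blastocysts and mESCs 12469548 to 19596785, so low members were read less precisely in oocytes, zygotes and 2-cell embryos. Zfp708 transcripts stood at 530 to 722 in OE cells, against 6.35 to 7.03 in control E14 cells, as the OE label says. In KO zygotes they stood at 146 to 303, against 73.4 to 202 in WT zygotes, and in KO mESCs at 7.81 to 9.0, against 6.95 to 7.14 in WT mESCs. The deletion shifts the reading frame and need not change the level of the transcript, so these levels do not check the KO labels. Stage markers were checked against the labels. All 8 oocyte markers averaged at least 1 in GV oocytes and zygotes of both genotypes, and all 8 blastocyst markers did so in KO and WT blastocysts. The sum of 3 markers of the 2-cell stage was 0 to 90.7 in KO 2-cell embryos, against 8.63 to 42.8 in WT 2-cell embryos, so at least 1 KO embryo was at 0 for this list. Among the KO 2-cell embryos, embryos 7 and 2 stood apart: their median correlations with the rest of the group were 0.615 and 0.829, against 0.868 to 0.910 for the other 6. The summed level of 8 cumulus and granulosa markers was 20.3 to 4595 in KO 2-cell embryos (4595 in embryo 7, 1200 in embryo 2), against 0 to 9.94 in WT 2-cell embryos, and the sum of 10 fibroblast markers was 23.5 to 1473 in KO, against 2.89 to 11.3 in WT. Counts of members called in KO 2-cell embryos, against WT 2-cell embryos and against KO zygotes, are therefore also given without these 2 embryos. Other results on KO 2-cell embryos include them unless stated. Leaving them out does not remove these markers: embryos 3, 4 and 1 still had cumulus and granulosa sums of 303, 231 and 103.

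Most of the family was transcribed at every stage. Members with a normalised read count of at least 1 numbered 233, 237 and 242 (lowest, median and highest library) in KO GV oocytes, against 235, 241 and 259 in WT. They numbered 223, 228 and 236 in KO zygotes, against 219, 223 and 236 in WT, and 243, 261.5 and 299 in KO 2-cell embryos, against 231, 245 and 256 in WT. Blastocysts held 255 to 264 in KO and 255 to 262 in WT, mESCs 291 to 299 in KO and 295 to 297 in WT, and E14 cells 294 to 297 in OE and 294 to 297 in control. The ranges of KO and WT overlapped at every stage, and the highest 2-cell count, 299, was that of KO embryo 2, which had high marker levels of other cells (above), whose part in it was not tested. Read for read the family was a small part of the transcriptome. It took 1.05% to 1.12% of reads in KO GV oocytes and 0.922% to 1.13% in WT, 0.642% to 0.680% in KO blastocysts and 0.625% to 0.653% in WT, and 1.03% to 1.08% in KO mESCs and 0.947% to 1.07% in WT. KRAB members supplied a median of 45.4% of these reads in WT GV oocytes, 42.0% in WT zygotes, 40.7% in WT 2-cell embryos, 40.3% in WT blastocysts and 33.6% in WT mESCs. The libraries of whole blastocysts and of mESCs were bulk samples, in which fewer cells of a type and less RNA per cell cannot be told apart. They were also read more deeply than those of oocytes, zygotes and 2-cell embryos. The mESC libraries followed another protocol, and that of the blastocysts is not stated in the sources used here. In the counts and shares above, depth and protocol therefore cannot be told apart from stage between these kinds of library.

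**Figure D1:**
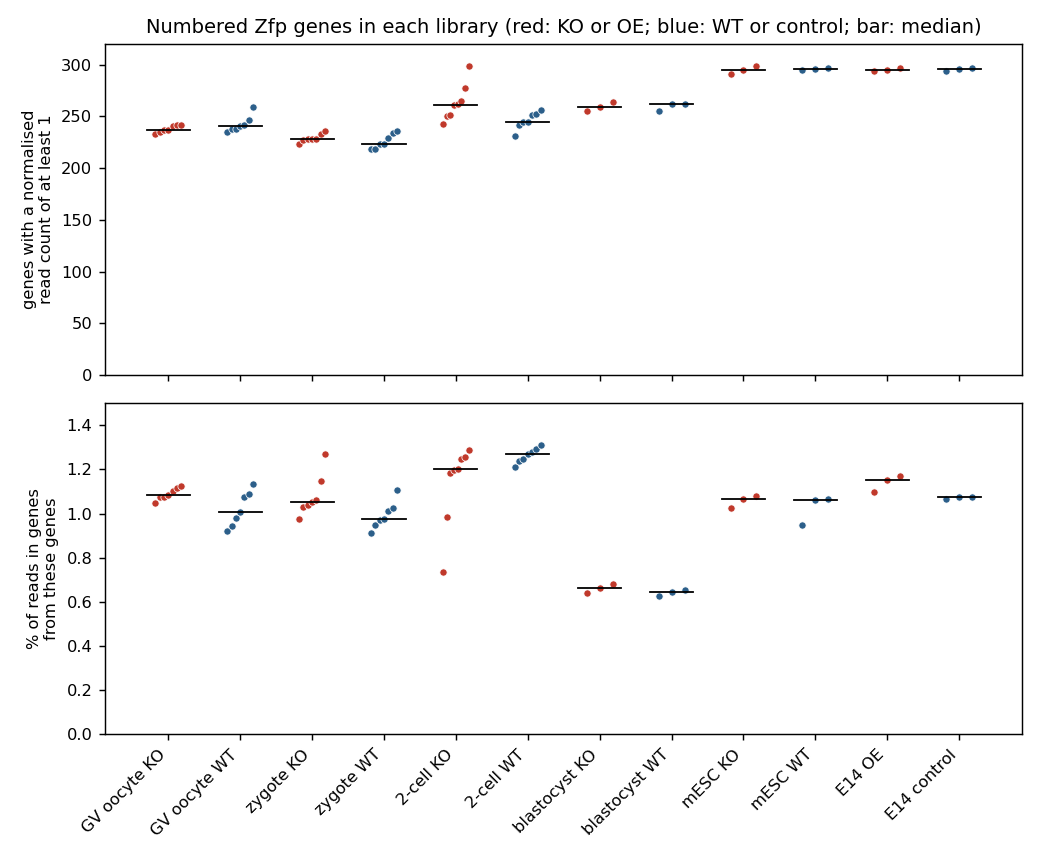
Each point is a library; the upper panel gives the number of the 314 genes with a normalised read count of at least 1 and the lower panel the percentage of reads in genes that fell on them, with medians as bars, KO or OE in red and WT or control in blue. WT zygotes have a median of 223 genes and WT mESCs 296, from libraries of unlike depth and protocol. In the lower panel the lowest 2-cell KO embryo, embryo 7 at 0.734%, lies beneath all WT 2-cell embryos, which span 1.21% to 1.31%. Embryo 2 is next at 0.982%, and both had high marker levels of other cells. The remaining KO 2-cell embryos span 1.18% to 1.29% and overlap WT.

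Which members led depended on the stage. Per kilobase of exon, Zfp296, a partner of KLF4 in reprogramming, stood first in WT GV oocytes at 331 ± 74.7 normalised reads, ahead of Zfp277 at 144 ± 34.7 and the KRAB gene Zfp958 at 138 ± 61.9 (SD, n = 7). The last 2 did not differ beyond their spread. WT zygotes were led by Zfp655 at 173 ± 42.5, Zfp108 at 161 ± 26.7 and Zfp957 at 133 ± 9.65 (n = 7), close together for their spread. WT 2-cell embryos were led by Zfp639 at 218 ± 69.9, Zfp706 at 156 ± 23.9 and Zfp296 at 124 ± 30.7 (n = 7). In WT blastocysts Zfp706 reached 130 ± 2.25, and Zfp296 64.2 ± 12.3 (n = 3). In WT mESCs Zfp106 reached 58.8 ± 1.26 and Zfp207 51.4 ± 0.849 (n = 3), and the same pair led control E14 cells, at 66.8 ± 1.12 and 57.6 ± 0.201. The median member stood far lower, at 2.15 per kilobase in WT GV oocytes, 1.93 in WT zygotes, 2.79 in WT 2-cell embryos, 1.96 in WT blastocysts and 3.63 in WT mESCs. Ranked by mean over the WT GV oocyte, zygote and 2-cell stages alone, with blastocysts and mESCs left out of the ranking, 148 members (87 with KRAB) were highest in 2-cell embryos, 73 (36) in zygotes and 68 (44) in GV oocytes, and 25 (14) stayed below 1 in all 3.

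The passage from zygote to 2-cell embryo, when the embryo's own genome switches on and maternal RNA is cleared, moved most of the family. In WT, 94 members were higher and 86 lower in 2-cell embryos than in zygotes out of 251 tested, or 71.7%, at an adjusted p under 0.05 in limma on log2(normalised read count + 1), the test used throughout unless another is named. Of all genes 75.1% were called, 36.3% higher and 38.8% lower. The median change of the members was 0.15 on the log2 scale and that of all genes -0.10. KRAB members split evenly, with 52 higher and 52 lower of 141, and those without KRAB 41 and 34 of 109. In 61 of the 94 higher members and 46 of the 86 lower ones the 2 stages did not overlap, or 24.3% and 18.3% of the members tested, where 25.3% of all genes were higher and 24.1% lower without overlap, so the family did not stand out by this measure. The balance depends on the scaling: edgeR gave 105 higher and 71 lower, with the median of all genes 0.22 higher than in limma, and quantile normalisation 79 and 94, with that median 0.13 lower.

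Zfp707, a KRAB gene on chromosome 15 (75799553 to 75806298, NCBIM37), had the smallest p of the members that rose. Its normalised read counts were 112, 187 and 227 (lowest, median and highest library) in WT 2-cell embryos, against 0, 0.397 and 1.72 in WT zygotes, and it had stood at 2.33, 6.81 and 18.5 in WT GV oocytes. Its log2 change from zygotes was 6.82 ± 0.27 (SE; limma, adjusted p = 8.96e-15). Zfp599, a KRAB gene on chromosome 9, had no read in any of 7 WT zygotes and 34.1, 76.2 and 84.9 in WT 2-cell embryos, which was at least 475-fold higher against a floor of 3 reads over the group. Zfp622, which takes part in the maturation of the large ribosomal subunit, had 49.4, 75.6 and 139 in WT 2-cell embryos, against 0, 0 and 0.582 in WT zygotes. The zygotes held only 2 reads of it in all, so the ratio of 995 has a 95% counting interval of 276 to 8219. All 3 genes were near 0 in the zygote and present in every 2-cell embryo, and all 3 were also read in WT blastocysts (means 21.6, 39.5 and 87.9) and WT mESCs (6.6, 22.8 and 60.8). Zfp639 stood at 163, 305 and 497 in WT 2-cell embryos, against 9.04, 14.1 and 21.1 in WT zygotes, a log2 change of 4.31 ± 0.22. Zfp367, with 138, 160 and 203 against 0, 1.5 and 3.73, and Zfp981, with 89.8, 129 and 200 against 2.66, 4.01 and 7.1, changed by 6.00 ± 0.31 and 4.65 ± 0.23.

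Regulators of pluripotent cells were among those that rose. This list and the other functional lists below were chosen with earlier results of these data known, so their counts are a description. Of 6 regulators of pluripotent cells 5 were tested, and 4 were higher and none lower in WT 2-cell embryos than in WT zygotes. The median log2 change of the 5 was 1.93, where 36.3% of all genes were higher. Zfp281, a factor that tunes Nanog, reached 88.8, 216 and 380 in WT 2-cell embryos, against 5.05, 11.7 and 17.2 in WT zygotes (4.10 ± 0.30), and averaged 41 in WT blastocysts and 125 in WT mESCs. Zfp143, which binds the promoters of housekeeping genes, reached 84.9, 153 and 171, against 30.1, 35.1 and 44.5 in WT zygotes (1.93 ± 0.16). Zfp217, found with histone demethylase co-repressors, reached 83.1, 155 and 243, against 27.1, 36.8 and 42.1 (2.06 ± 0.19). For all 3 the lowest 2-cell embryo stood above the highest zygote. Zfp706 did not pass the test, at 593, 702 and 866 against 476, 585 and 707. In zygotes, by contrast, Zfp143 and Zfp281 had been lower than in GV oocytes, by 0.35 ± 0.13 and 1.02 ± 0.26 on the log2 scale. Zfp143 lost this call in 3 of 14 cases with a library left out.

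Among 4 KRAB genes with a known target, Zfp809, which silences murine leukaemia virus through its primer binding site, stood at 27.8, 70.8 and 179 in WT 2-cell embryos, against 0.873, 5.23 and 6.11 in WT zygotes (3.74 ± 0.36). Zfp568, which represses a placental promoter of Igf2, stood at 131, 183 and 353, against 69.9, 89.4 and 122 (1.05 ± 0.19). Zfp932, which silences endogenous retroviruses in ESCs, was lower, with 11.5, 43.7 and 62.2 in WT 2-cell embryos, against 36.9, 54.4 and 80 in WT zygotes (-0.86 ± 0.33), and these 2 groups overlapped. Zfp819 did not pass (-0.14 ± 0.51). Of 6 tested partners of chromatin complexes, Zfp335, Zfp410 and Zfp644 were higher and Zfp592 and Zfp687 lower. Zfp644, a partner of the histone methyltransferases G9a and GLP, stood at 226, 314 and 410 in WT 2-cell embryos, against 17.8, 29.4 and 50.2 in WT zygotes (3.26 ± 0.20). Zfp592 is a weak case, since its change of -0.37 became 0.08 under quantile normalisation.

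Members with the clearest falls at the same passage had been abundant in the oocyte. Zfp735, a KRAB gene on chromosome 11, stood at 0.32, 4.17 and 19.4 in WT 2-cell embryos, against 158, 222 and 359 in WT zygotes, or 31.9-fold lower (-5.32 ± 0.46). Zfp616, which lies near it on chromosome 11 (73883457 to 73900794), stood at 10.9, 13.5 and 33.8, against 193, 215 and 271 (-3.71 ± 0.22). Zfp957 stood at 73.2, 103 and 131, against 388, 419 and 478 (-2.01 ± 0.13). These genes were already present in WT GV oocytes (medians 144, 143 and 227), and none of the 3 had a read in WT blastocysts, WT mESCs or control E14 cells, where their means were 0. Zfp750, known as a factor of the differentiating epidermis, followed the same course, with 2.87, 16.9 and 32.5 in WT 2-cell embryos, against 279, 337 and 425 in WT zygotes (-4.53 ± 0.31), and a mean of 9.06 in WT mESCs. Zfp60 at 11.8, 16 and 36.4 against 204, 251 and 281, and Zfp277, a partner of Polycomb proteins, at 23.8, 44.6 and 70.8 against 317, 347 and 439, fell by 3.54 and 3.06 on the log2 scale. Of the 40 genes named in this comparison, 38 kept the call whichever library was left out.

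**Figure D2:**
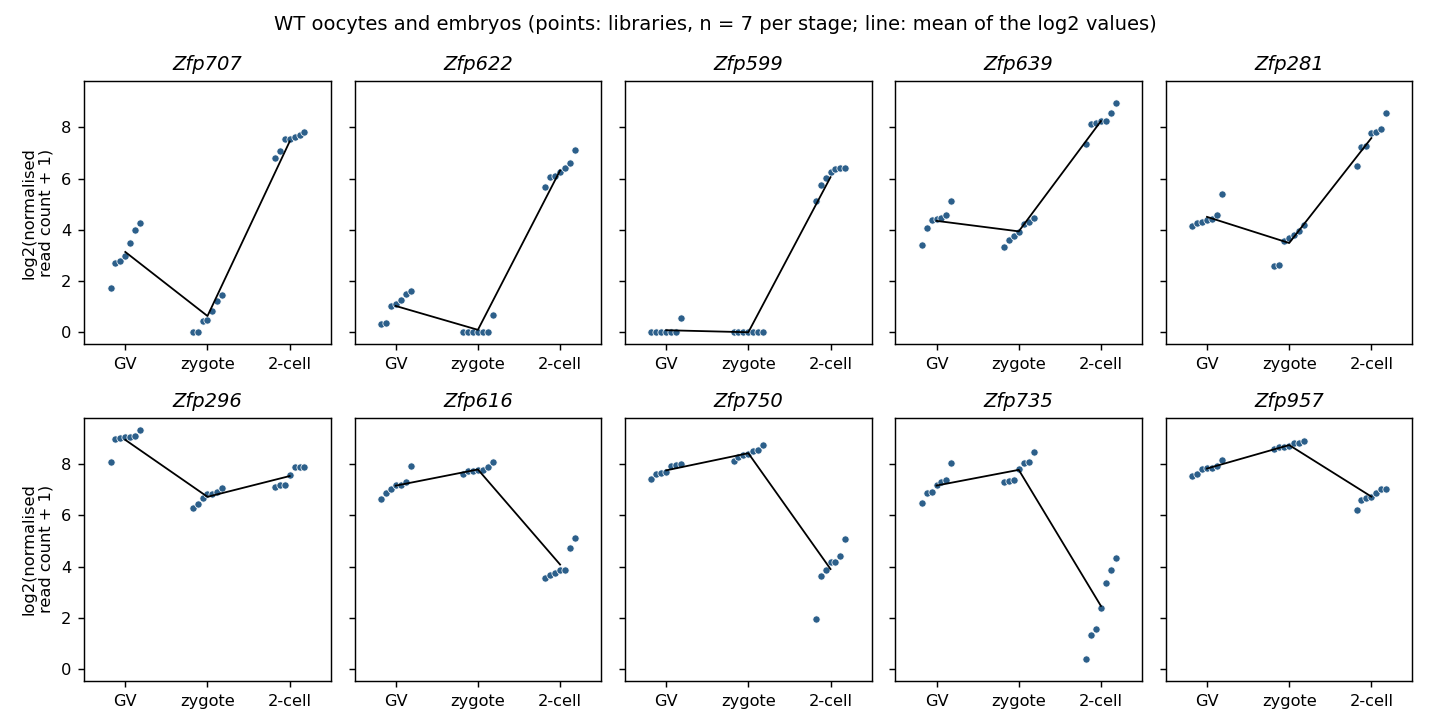
Each panel gives 1 gene, with log2(normalised read count + 1) of 7 WT libraries at each of the GV oocyte, zygote and 2-cell stages as points and the mean as a line. Zfp707, Zfp622 and Zfp599 leave a zygote level near 0, with 2-cell medians of 187, 75.6 and 76.2 reads, whereas Zfp616, Zfp750, Zfp735 and Zfp957 are high in oocytes and zygotes and lower in every 2-cell embryo.

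Promoters of members that moved at this step were read for short motifs. A window of 300 bases, with 250 before and 50 after the start in RefSeq (GRCm38.p6), was found for 261 of the 314 members. It held CCAAT, the box bound by NF-Y, on either strand in 49.4% of members (54.7% with KRAB, 40.6% without) and in 37.9% of all 27025 promoters. It was present in 62.0% (49 of 79) of members higher in WT 2-cell embryos and in 43.1% (31 of 72) of those lower. Windows were matched by symbol, with the first taken where a symbol had more than 1. The window matched to Zfp981, counted among the 49, lies on the other strand than the NCBIM37 gene. CCGGAAG, the core read by ETS factors, was in 21.1% of members and 9.12% of all promoters, with 16.5% among the higher and 26.4% among the lower members. The core of the ZFP143 site (ZFP143 being a member itself) was in 4.60% of members and 1.11% of all promoters, with 1.27% among the higher and 8.33% among the lower members. The sets were not matched for base composition. The median ratio of observed to expected CpG was 0.638 in members and 0.389 in all promoters, and CCGGAAG contains a CpG. The part of this in the motif shares was not tested. A match is a string of letters, and binding was not measured. Zfp367, which was higher, is shown with CCAAT in capitals, Zfp60, which was lower, with CCGGAAG, and Zfp692, which was lower, with the ZFP143 core, each motif on either strand (GRCm38.p6):
Zfp367 (chr13:64153150-64153449, minus strand): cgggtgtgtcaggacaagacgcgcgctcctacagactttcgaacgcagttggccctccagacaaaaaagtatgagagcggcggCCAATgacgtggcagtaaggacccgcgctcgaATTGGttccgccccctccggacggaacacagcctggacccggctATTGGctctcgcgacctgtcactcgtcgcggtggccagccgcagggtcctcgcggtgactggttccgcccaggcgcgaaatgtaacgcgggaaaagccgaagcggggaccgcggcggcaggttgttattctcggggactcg
Zfp60 (chr7:27731159-27731458, plus strand): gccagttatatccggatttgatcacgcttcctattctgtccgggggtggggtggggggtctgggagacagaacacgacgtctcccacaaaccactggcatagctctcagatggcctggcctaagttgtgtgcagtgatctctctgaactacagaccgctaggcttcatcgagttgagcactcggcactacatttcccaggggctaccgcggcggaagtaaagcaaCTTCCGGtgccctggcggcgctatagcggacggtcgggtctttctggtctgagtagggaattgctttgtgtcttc
Zfp692 (chr11:58306819-58307118, plus strand): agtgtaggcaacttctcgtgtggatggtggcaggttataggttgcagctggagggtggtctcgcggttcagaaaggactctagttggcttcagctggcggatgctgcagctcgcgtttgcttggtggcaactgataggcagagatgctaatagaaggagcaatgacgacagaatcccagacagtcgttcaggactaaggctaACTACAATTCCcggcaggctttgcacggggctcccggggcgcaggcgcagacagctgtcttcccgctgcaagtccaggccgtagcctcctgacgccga
Zfp367 held 3 CCAAT boxes, while Zfp60 and Zfp692 held 1 match each to their motif and 0 CCAAT.

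The passage from GV oocyte to zygote spans meiotic maturation and fertilisation and draws on RNA stored in the oocyte. Here 57 members were higher and 58 lower in WT zygotes out of 242 tested, or 47.5%, and 64.9% of all genes were called (32.3% higher, 32.7% lower). The median member changed by 0.04 and the median gene by 0.02 on the log2 scale. Of 135 KRAB members 19 were higher and 32 lower, with a median of -0.05, and of 106 without KRAB 38 were higher and 25 lower, with a median of 0.20. Quantile normalisation moved the median of all genes by 0.24 and turned the balance, to 96 higher and 33 lower for all members and 43 and 18 for KRAB members, and a filter at 10 gave KRAB members 20 and 15. Members on chromosome 7 were 8 higher and 26 lower of 65 (median -0.21), those on other chromosomes 49 and 32 of 177 (0.09). All genes on chromosome 7 were counted too, with 220 higher and 344 lower of 871 (-0.20). Under quantile normalisation the chromosome 7 members were 21 higher and 16 lower.

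Zfp296 stood at 77.1, 112 and 133 in WT zygotes, against 273, 530 and 650 in WT GV oocytes, or 4.77-fold lower (-2.22 ± 0.16; limma, adjusted p = 8.65e-11). Zfp593, a small protein whose yeast relative takes part in ribosome export, stood at 0.374, 0.797 and 2.75, against 14.3, 20.8 and 23.8 (-3.27 ± 0.25), and Zfp61 at 14.8, 23.9 and 28.1, against 57.7, 93.4 and 121 (-1.95 ± 0.17). All 3 were lower in every zygote than in any oocyte, and Zfp593 came back in WT 2-cell embryos, at 8.31, 16.3 and 25.5. Of 6 tested factors that bind RNA or ribosomes 3 were higher and none lower, where 32.3% of all genes were higher. Zfp106, an RNA-binding protein needed by motor neurons and muscle, stood at 218, 270 and 337 in WT zygotes, against 84.7, 112 and 122 in WT GV oocytes (1.27 ± 0.12), and went on to 407, 420 and 598 in WT 2-cell embryos. Zfp638, a nuclear protein that silences unintegrated retroviral DNA, stood at 188, 228 and 265, against 95.5, 112 and 158 (0.96 ± 0.12). Zfp598, which senses collided ribosomes, was higher by 0.73 ± 0.24, with overlapping groups. Of 5 tested factors of later lineages 4 were higher in WT zygotes and none lower, on the same background of 32.3%: Zfp423, Zfp516, Zfp703 and Zfp750. Zfp423, a factor of fat and cerebellar precursors, stood at 34, 36.7 and 46 in WT zygotes, against 16.3, 18.9 and 20.4 in WT GV oocytes. Of 4 tested in 2-cell embryos, 3 of these were lower than in zygotes, with Zfp423 4.11-fold lower. Of 3 tested genes of mitosis, SUMO or genome maintenance, Zfp451, a SUMO ligase, and Zfp830 were higher in WT zygotes, and Zfp830 was lower in WT 2-cell embryos. Of the 36 genes named for WT zygotes against GV oocytes, 32 kept the call whichever library was left out. Zfp451 lost it in 5 of 14 cases.

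The same passages were read in KO libraries, which share none with the WT ones. In KO, 65 members were higher and 47 lower in zygotes than in GV oocytes of 235 tested, while 64.4% of all genes were called (31.9% higher, 32.5% lower), and 97 were higher and 81 lower in 2-cell embryos than in zygotes of 271, while 66.2% of all genes were called (33.1% each way). Without 2-cell embryos 2 and 7 the counts for 2-cell embryos were 97 and 89 of 263. For the step to the zygote, 82 members were called in both genotypes, 73.2% of the WT calls and 73.9% of the KO calls among 233 tested in both, and all 82 had the same direction. For the step to the 2-cell embryo, with embryos 2 and 7 included, 146 of 248 were called in both, 82.0% of the WT calls and 90.1% of the KO calls, and all 146 had the same direction.

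Between KO and WT, limma called members in zygotes and none in GV oocytes, 2-cell embryos or blastocysts. In zygotes 15 members were higher and 11 lower in KO than in WT of 231 tested, or 11.3%, against 14.6% of all genes (8.19% higher, 6.38% lower). The family did not stand out by the number of its calls. KRAB members had 11 higher of 128, or 8.59%, which is about the share of all genes, and 2 lower, or 1.56%, with a median log2 change of 0.27. Members without KRAB had 4 higher and 9 lower of 102, or 3.92% and 8.82%, with a median of -0.05, and the median of all genes was 0.03. KRAB members had 10 higher and 2 lower under quantile normalisation, 8 and 2 in edgeR and 7 and 2 with size factors taken within the comparison. Beside these calls, the summed level of the 8 oocyte markers was 13748 to 18728 in KO zygotes, against 16453 to 19408 in WT zygotes, and the part of this in the members' values was not tested. Leaving out KO zygote 3 or 6 or WT zygote 1, 2, 6 or 7 brought the 26 calls to 14 to 17.

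Zfp677, a KRAB gene on chromosome 17 (21520712 to 21536229), stood at 4.01, 9.18 and 21.2 in KO zygotes, against 0.287, 2.78 and 5.61 in WT zygotes, or 4.32-fold higher (1.80 ± 0.37; limma, adjusted p = 0.00175). Zfp951, a KRAB gene on chromosome 5, stood at 119, 150 and 358, against 54.4, 85.4 and 149 (0.99 ± 0.23), and Zfp68, also on chromosome 5, at 388, 510 and 807, against 240, 310 and 488 (0.71 ± 0.17). The groups overlapped at their edges for all 3. Zfp661 was the one called member whose groups did not overlap, with 2.16, 3.23 and 5.57 in KO zygotes, against 0, 0.873 and 1.59 in WT zygotes (1.16 ± 0.29; limma, adjusted p = 0.00881), though at a level of a few reads, and 2.37% of all genes were higher without overlap. Zfp442 at 34.4, 47 and 57.8 against 19.9, 26.5 and 35.9, and Zfp420 at 53.1, 70.5 and 127 against 23.6, 43 and 57, were higher by 0.79 ± 0.17 and 0.84 ± 0.20.

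On the lower side stood members without KRAB with known roles elsewhere. Zfp598, the sensor of collided ribosomes, had 23.2, 46.7 and 48.3 in KO zygotes, against 43.7, 63.9 and 116 in WT zygotes (-0.84 ± 0.20). Zfp277 had 160, 231 and 319, against 317, 347 and 439 (-0.62 ± 0.14), and Zfp703, a factor of luminal breast cells in humans, had 6.16, 7.46 and 15.2, against 12.3, 16.6 and 31.4 (-0.94 ± 0.25). The KRAB gene Zfp606 had 6.21, 11.2 and 15.6, against 14.8, 21.2 and 23.9 (-0.86 ± 0.20), and Zfp523 had 1.76, 3.52 and 9.17, against 5.98, 9.04 and 14.3 (-1.11 ± 0.28). For the last 4 genes most KO zygotes lay beneath the WT range, and for Zfp598 the groups overlapped more. Of the 22 genes named in this comparison, 14 kept the call whichever library was left out; Zfp180, Zfp207, Zfp541, Zfp600, Zfp618, Zfp873, Zfp932 and Zfp942 lost it with at least 1.

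In GV oocytes no member was called of 246 tested (0 higher, 0 lower), against 3.64% of all genes (1.44% higher, 2.2% lower). At an unadjusted p under 0.05 there were 58, and edgeR called 3 and DESeq2 7. The nearest were Zfp654, with 34.7, 50.9 and 54.4 in KO and 49.3, 65.4 and 90 in WT (-0.48 ± 0.13; limma, adjusted p = 0.0503), and Zfp74, with 18.9, 23 and 29.3 in KO and 11.7, 16.6 and 19.2 in WT (0.52 ± 0.15; limma, adjusted p = 0.0508). Without WT oocyte 6, 13 members were called, and without WT oocyte 2, 5 or 7, or KO oocyte 1, there were 3, 4, 6 and 1. In 2-cell embryos limma again called 0 of 272, against 0.708% of all genes (0.7% higher, 0.00795% lower), with 25 at an unadjusted p under 0.05, 1 call in edgeR and 10 in DESeq2, and without embryos 2 and 7 it called 0 of 266. Zfp422, the nearest, was read at 0, 8.22 and 79.3 in KO 2-cell embryos, against 0, 0 and 3.51 in WT 2-cell embryos (2.94 ± 0.75; limma, adjusted p = 0.0769), and its 2 highest values, 79.3 and 55.8, were those of embryos 7 and 2. The standard error of the log2 change was wider here than at the other stages, with a median over members of 0.50, against 0.21 in GV oocytes, 0.25 in zygotes and 0.19 in blastocysts, so a change of a size that was called in zygotes could be missed in 2-cell embryos. In blastocysts limma called 0 of 262, against 0.00885% of all genes, with 4 at an unadjusted p under 0.05 and 0 in edgeR and DESeq2. Of these 4 Zfp558 changed most, with 2.65 to 3.92 in KO and 1.53 to 2.52 in WT (0.60 ± 0.22; limma, adjusted p = 1.00).

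**Figure D3:**
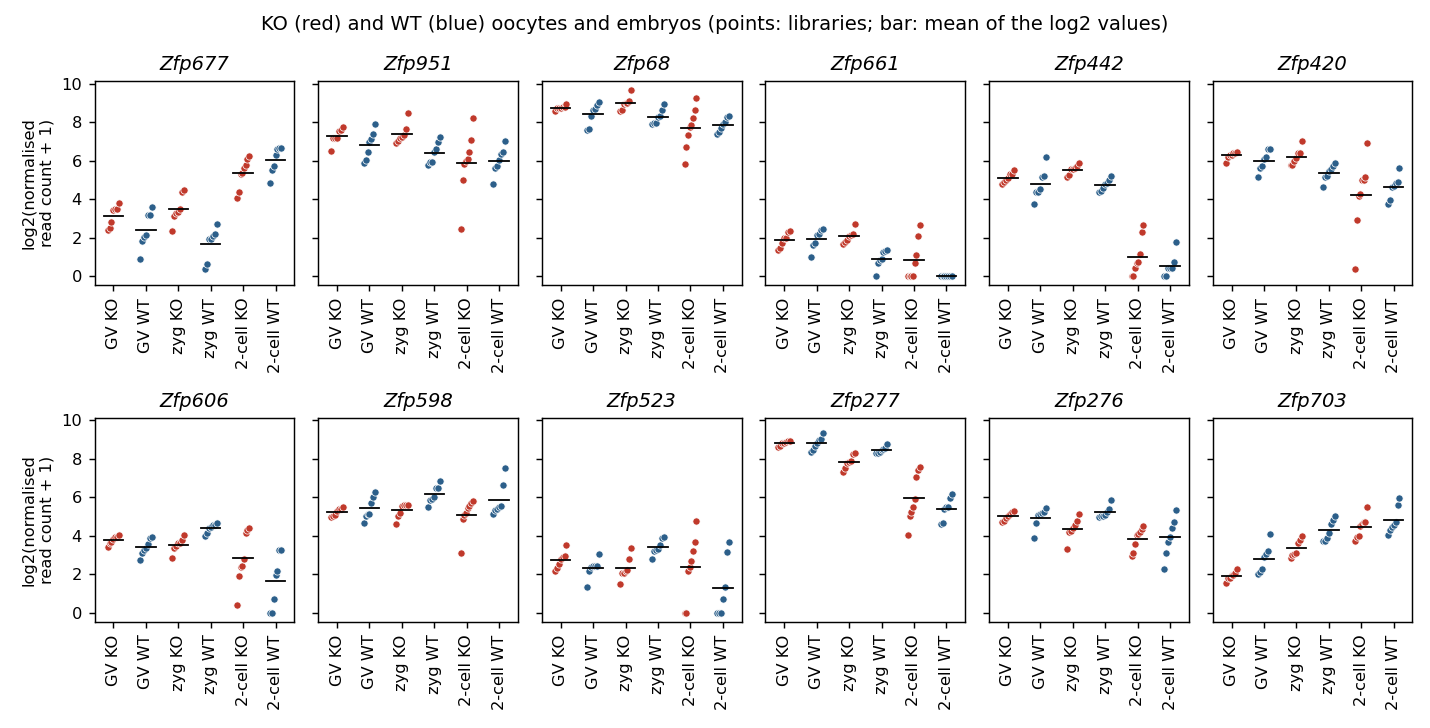
Each panel gives 1 gene, with log2(normalised read count + 1) of each KO (red) and WT (blue) library at the GV oocyte, zygote and 2-cell stages and the mean as a bar. Zfp661 separates the genotypes in zygotes, with KO from 2.16 to 5.57 and WT from 0 to 1.59, and the 2-cell KO embryos spread more widely than the WT ones in most panels.

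Whether the genotypes differed more at 1 stage than at the next was tested as an interaction. The KO effect in zygotes differed from that in GV oocytes for 5 of 253 members, or 1.98%, against 6.8% of all genes (3.84% higher, 2.97% lower): Zfp248 and Zfp661 were more positive in zygotes, by 1.08 and 1.20 on the log2 scale, and Zfp523, Zfp606 and Zfp277 more negative, by -1.53, -1.23 and -0.63. Zfp606, for one, had 9.78, 13.2 and 15.4 in KO GV oocytes, against 5.69, 9.34 and 14.1 in WT, the other way round from the zygotes. Zfp677 alone differed between 2-cell embryos and zygotes (1 of 286, against 1.44% of all genes, 1.21% higher and 0.224% lower), by -2.50: it stood at 15.7, 44.2 and 75.5 in KO 2-cell embryos, against 27.8, 78.2 and 102 in WT, and it was called with embryos 2 and 7 left out too.

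In mESCs, which lack maternal and zygotic ZFP708, 17 members were higher and 12 lower in KO than in WT of 295 tested, or 9.83%, against 13.9% of all genes (8.26% higher, 5.6% lower). KRAB members had 11 higher and 3 lower of 171 (6.43% and 1.75%), and those without KRAB 6 and 9 of 123 (4.88% and 7.32%). Among 6 mESC markers Esrrb, Pou5f1 and Tfcp2l1 were higher and none lower in KO. Of 2 fibroblast markers tested Col1a1 was higher. The part of these differences in the members' values was not tested. Zfp819, a KRAB gene on chromosome 7 (50862539 to 50873655) that represses IAP retrotransposons in ESCs, was read at 25.7, 23.1 and 23 in the KO libraries, against 14, 12.1 and 12.2 in the WT libraries (0.86 ± 0.10; limma, adjusted p = 0.00482). Zfp229, a KRAB gene on chromosome 17, was read at 110, 109 and 104 in KO, against 54.1, 27 and 53.4 in WT (1.31 ± 0.26), and Zfp961 at 80.9, 99.7 and 93.2, against 52.3, 62.3 and 54.6 (0.68 ± 0.10). Zfp609, a partner of the cohesin loader, was lower, at 64, 60.8 and 62.4 in KO, against 91.1, 88.6 and 93.2 in WT (-0.54 ± 0.06). Zfp296 was read at 39.7, 49.6 and 44 in KO, against 30.6, 30.9 and 30.6 in WT (0.51 ± 0.09), and Zfp750 at 5.7, 5.04 and 5.86, against 8.53, 9.09 and 9.56 (-0.62 ± 0.11).

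These calls rest on few libraries. WT mESC library 2 stood apart from the other WT libraries, with a chi-square per gene of 32.9 and 33.0 against them, where those 2 gave 3.15 with each other, and it was the low value of Zfp229. Without it 87 members were called and the balance turned, to 31 higher and 56 lower, with KRAB members at 19 and 18 and those without KRAB at 12 and 38. Without KO library 1, 2 or 3 or WT library 1 or 3 there were 12, 2, 2, 10 and 6. Zfp819 and Zfp609 kept the call in all 6 cases, the others of the 21 genes named did not. KO libraries 2 and 3 differed from each other by a chi-square per gene of only 1.68, where counting error alone gives about 1. KO library 1 gave 10.38 and 11.97 against them. Nothing says whether KO libraries 2 and 3 are separate cultures, so the adjusted p-values here may be too small. With near-identical libraries averaged, 11 of the 21 named genes kept the call and 10 did not.

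Between OE and control E14 cells much of the transcriptome differed, and the family with it. Of 296 members tested 81 were higher and 46 lower in OE than in control, or 42.9%, against 49.9% of all genes. The members were 27.4% higher and 15.5% lower, and all genes 21.9% higher and 28.1% lower. KRAB members had 54 higher and 16 lower of 172 (31.4% and 9.3%) with a median log2 change of 0.15, members without KRAB 27 and 30 of 123 (22.0% and 24.4%) with a median of -0.01, and all genes a median of -0.02. On chromosome 7, 28 members were higher and 3 lower of 80 (35.0% and 3.75%). All genes on chromosome 7 were 21.2% higher and 23.4% lower. KRAB calls were mostly higher under quantile normalisation (88 and 12), edgeR (60 and 15) and DESeq2 (45 and 12) as well, and quantile normalisation brought the whole family to 124 higher and 37 lower. Members without KRAB turned to 35 higher and 25 lower under quantile normalisation and 30 and 27 under edgeR. Leaving out a library gave 95 to 173 calls, 173 without OE library 3. Among 6 mESC markers Esrrb, Nanog, Pou5f1 and Tfcp2l1 were higher and Utf1 lower in OE cells. Of 6 fibroblast markers tested Vim was higher and Acta2, Col1a1, Col1a2 and Tagln were lower. The part of these differences in the members' values was not tested.

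The p-values here need care. Among control libraries the chi-square per gene was 1.07 to 1.12, where counting error alone gives about 1, and OE libraries 1 and 2 by 1.25, where OE library 3 gave 6.96 and 7.16 against them, and nothing says whether they are separate cultures. With such libraries averaged and the spread taken over all 4 mESC and E14 groups, 1 member was called. Values of single libraries are therefore given.

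Zfp608 had the largest fall among named members, with 3.08, 3.32 and 3.46 in the OE libraries, against 17.5, 17.1 and 16.8 in the control libraries, or 5.22-fold lower (-2.08 ± 0.09; limma, adjusted p = 1.07e-07). Zfp521, a factor of early neural cells, had 1.8, 0.991 and 1.45 in OE, against 5.77, 4.76 and 4.24 in control (-1.30 ± 0.15). Its close relative Zfp423 went the other way, with 30.8, 28.7 and 37.5 in OE, against 14.5, 16 and 15.8 in control (1.02 ± 0.09). Zfp36, the gene of tristetraprolin, which clears AU-rich mRNAs, had 9.41, 9.38 and 18.4 in OE, against 26.2, 25.6 and 28.1 in control (-1.11 ± 0.23), with OE library 3 apart from the other 2. Zfp229 was higher in OE, at 78, 76.8 and 59.7, against 36.7, 34.6 and 35.8 in control (0.97 ± 0.09), and Zfp654, without KRAB, had 51.8, 48.6 and 48.2, against 30.7, 30.6 and 28.7 (0.70 ± 0.05). Of the 4 KRAB genes with known targets 3 were higher and none lower, where 21.9% of all genes were higher. Zfp809 had 22.7, 23.1 and 23.3 in OE, against 15.8, 16.2 and 15.6 in control, Zfp819 had 38.3, 37.1 and 33.4, against 24.6, 25.1 and 24, and Zfp932 had 18.6, 16 and 18.9, against 15.4, 14 and 14.9. Zfp932 lost the call without control library 2 or 3 or OE library 1.

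Neighbouring KRAB members were then read cluster by cluster, and the clusters described were chosen after their values were seen, so their counts are a description. Members no more than 500000 bases apart formed 13 clusters of at least 6, with 130 members in all. The chromosome 4 cluster (145100662 to 147222475) held 12 members, all with KRAB, of which 11 were higher and none lower in OE, with a median log2 change of 0.46. In KO mESCs 1 of the same 12 was higher, with a median of 0.38, which was 0.14 without WT library 2, and in WT 2-cell embryos 7 were higher and 1 lower than in zygotes of 11 tested (0.73). Of all genes 21.9% were higher in OE, 8.26% in KO mESCs and 36.3% in WT 2-cell embryos. Zfp992 had 19.1, 18.4 and 14.2 in OE, against 9.63, 9.79 and 10.5 in control, and Zfp600 had 30.3, 26.2 and 24.4, against 13.5, 16.5 and 17.9. In mESCs Zfp992 had 57.3, 59.2 and 51 in KO, against 50.4, 20.1 and 42.4 in WT, where again WT library 2 was the low one. The genes of this cluster are not separate measurements, since a median of 50.2% of their windows of 75 bases recur in another gene. Zfp991 and Zfp992, for example, share a run of 484 bases of coding sequence, and a window of it, given here with every base shared, lies at 4 places on chromosome 4 (NCBIM37):
Zfp991 (chr4:146552433-146552507, plus strand) and Zfp992 (chr4:145731985-145732059, minus strand): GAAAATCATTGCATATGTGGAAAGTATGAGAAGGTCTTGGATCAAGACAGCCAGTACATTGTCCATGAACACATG
Reads from such stretches fit more than 1 gene, so the single values of these members are uncertain.

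A second cluster, on chromosome 7 around Zfp819 (49728756 to 50873655), held 9 members, all with KRAB, and a median of 0% shared windows. In OE 7 were higher and none lower of 9 (median 0.28), in KO mESCs 4 were higher and none lower of 9 (0.52; 7 higher without WT library 2), and in WT 2-cell embryos 4 were higher and none lower than in zygotes of 8 (1.06). Of all genes 21.9%, 8.26% and 36.3% were higher in these comparisons, in that order. Zfp936 had 28.8, 29.6 and 23.8 in OE, against 14.1, 14.1 and 12.9 in control (0.95 ± 0.09), and it changed by 1.03 ± 0.32 in KO mESCs without passing the test (limma, adjusted p = 0.0842), with 33, 39.5 and 37 in KO and 23.2, 9.52 and 23.4 in WT, library 2 again being the low one. Zfp976 had 30.8, 30.3 and 29.1 in OE, against 24.5, 24.8 and 24.4 in control, and 32.4, 34.9 and 34.7 in KO mESCs, against 24.5, 22.8 and 23 in WT mESCs. Among the other clusters, on chromosome 6 (47769265 to 48573226) none was higher and 4 were lower in OE of 8 tested, and on chromosome 8 (71750242 to 72315077) none was higher and 4 were lower of 5. Of all genes 28.1% were lower in OE. On chromosome 13 (67355854 to 67927937) 4 were higher and none lower in OE of 7 tested. As in the chromosome 8 cluster, the median member here shared part of its windows of 75 bases with another gene. The chromosome 13 cluster holds Zfp85, and Zfp708 transcripts were far higher in OE than in control. Zfp708 was the main partner of no member, but lesser sharing with it was not examined. Whether reads of Zfp708 were counted in these members was not tested. On chromosome 7 (6083091 to 6347755) 4 were higher and none lower of 6.

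**Figure D4:**
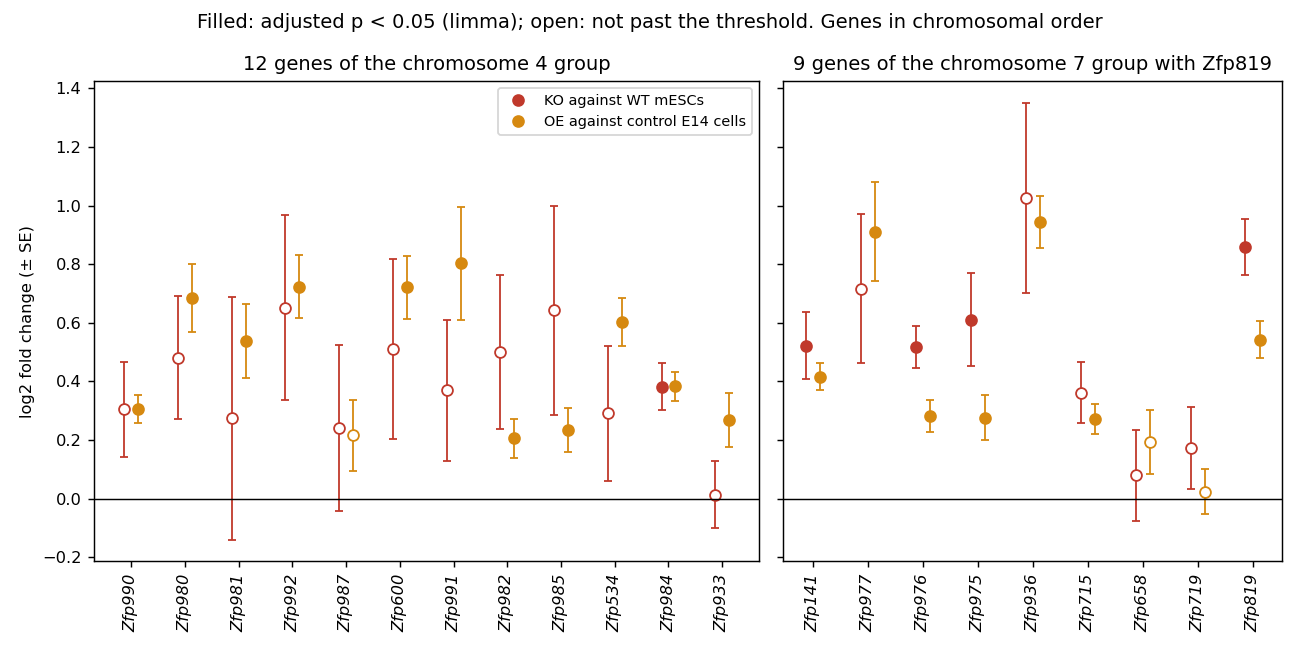
Points are log2 fold changes with SE of the 12 members of the chromosome 4 cluster and the 9 of the chromosome 7 cluster with Zfp819, for KO against WT mESCs (red) and OE against control E14 cells (orange), filled where the adjusted p in limma is under 0.05. The clusters were chosen after these values were seen. For OE 11 of 12 and 7 of 9 are filled, where 49.9% of all genes were called. For KO 1 of 12 and 4 of 9 are filled, where 13.9% of all genes were called.

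The partners of KRAB boxes were read from a list of 22 genes of the TRIM28 co-repressor machinery. In WT zygotes 11 were higher and 2 lower than in GV oocytes of 21, Trim28 and Setdb1 among the higher, where all genes were 32.3% higher and 32.7% lower. In WT 2-cell embryos 5 were higher and 12 lower than in zygotes of 22, Trim28, Setdb1 and Uhrf1 among the lower, where all genes were 36.3% higher and 38.8% lower. In KO zygotes, where 14.6% of all genes were called, Trim28 was the 1 called of 21, lower by 0.84 ± 0.19 on the log2 scale (limma, adjusted p = 0.00400). In OE cells 3 were higher and 9 lower of 22, Setdb1, Dnmt3a and Dnmt3b among the lower, where all genes were 21.9% higher and 28.1% lower. In KO mESCs 2 were higher and 2 lower of 22, where 13.9% of all genes were called. In KO GV oocytes 1 was higher and 3 lower of 21, where 3.64% of all genes were called, and none was called of 22 in KO 2-cell embryos or KO blastocysts by limma.

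Members without KRAB were grouped by function as well. In KO mESCs, where 13.9% of all genes were called, Zfp296 and Zfp706 were higher among 6 regulators of pluripotent cells, Zfp335, a subunit of a histone methyltransferase complex, was lower among 8 chromatin partners, and Zfp750 was lower among 5 lineage factors. In KO zygotes, where 14.6% of all genes were called, Zfp598 was lower among 6 RNA and ribosome factors, Zfp703 was lower among 5 lineage factors, and Zfp207, a spindle protein that binds BUB3, was higher among 3 genes of mitosis, SUMO or genome maintenance, with 218, 279 and 399 in KO, against 103, 187 and 315 in WT. In OE cells, where 49.9% of all genes were called, the pluripotency regulators had 2 higher (Zfp143, Zfp296) and 2 lower (Zfp217, Zfp462) of 6, the chromatin partners 1 higher (Zfp532) and 3 lower (Zfp592, Zfp687, Zfp711) of 8, the RNA and ribosome factors 2 higher (Zfp106, Zfp598) and 3 lower (Zfp326, Zfp36, Zfp638) of 7, the lineage factors 1 higher (Zfp423) and 2 lower (Zfp521, Zfp750) of 4, and the genes of mitosis, SUMO or genome maintenance 1 higher (Zfp830) and 1 lower (Zfp365) of 4. Of the 38 genes named for OE, 30 kept the call whichever library was left out. With 1 of the 6 libraries left out in turn, Zfp598 lost it in 5 cases, Zfp143 in 4, Zfp750 in 3, Zfp532 in 2, and Zfp326 and Zfp638 in 1 each.

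**Figure D5:**
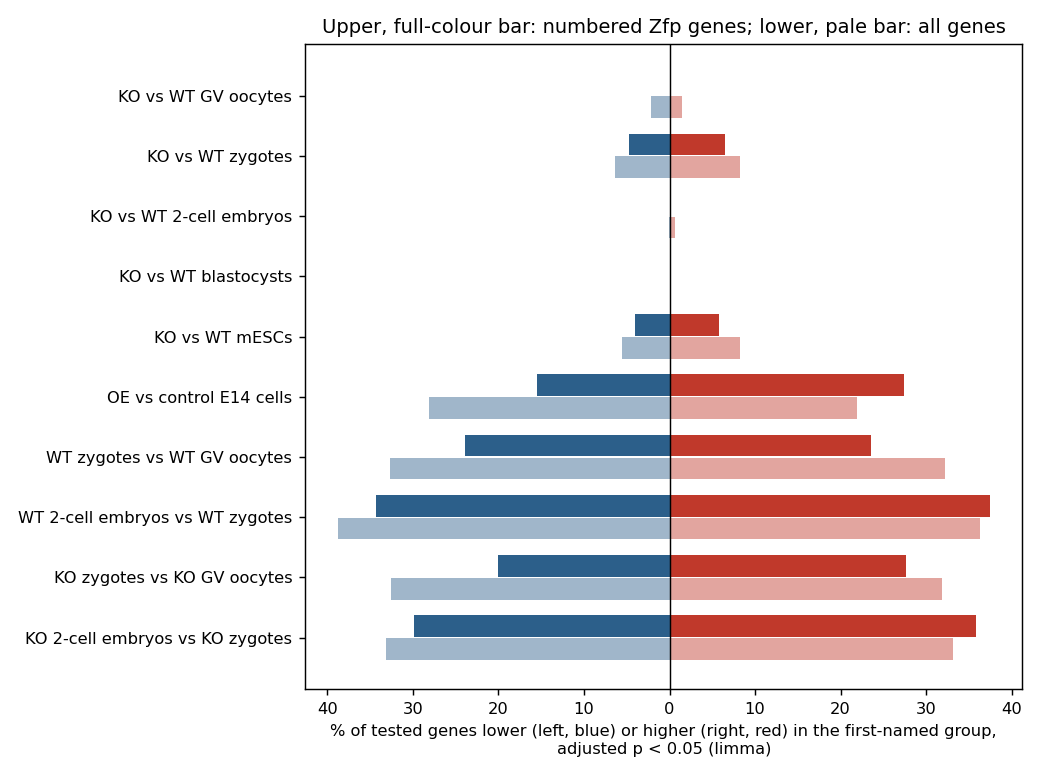
For each comparison the full-colour bar gives the percentage of tested members lower (left) or higher (right) in the first-named group at an adjusted p under 0.05 in limma, and the pale bar gives the same for all genes. In KO zygotes 11.3% of members and 14.6% of all genes were called, and in OE cells 27.4% of members and 21.9% of all genes were higher and 15.5% and 28.1% lower; the differences between these shares were not tested.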

How the data were processed

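The authors aligned single reads of 75 bases to mm9 (NCBIM37) by STAR 2.4.2a, used htseq-count on Ensembl 65 genes and deposited 1 table of signal values, read counts divided by DESeq2 size factors; per kilobase values were these over exon length. Oocyte, zygote and 2-cell libraries followed an amplified single-cell protocol and mESC libraries a directional poly(A) kit. The reverse-strand counting option is stated beside the mESC libraries, and whether it was used for the others is not given in the sources used here, so a gene and an antisense partner may not be told apart there. Of 18504 gene rows 108 were repeats and were dropped. Whole reads were recovered for 100% of values (tolerance 0.01), and edgeR 4.0.16 on them called 134 genes higher and 304 lower in KO GV oocytes, 840 and 736 in KO zygotes, 257 and 5 in KO 2-cell embryos, 1 and 0 in KO blastocysts, 949 and 662 in mESCs without ZFP708 and, for OE, 3044 and 3155.

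Each comparison was fitted in limma 3.58.1 (R 4.3.3; trend, robust, two-sided) on log2(value + 1), over its own libraries and all genes that reached 1 in a number of libraries equal to the smaller group, with Benjamini-Hochberg adjustment over all genes and a threshold of 0.05. A fold on this scale understates the change of low genes. Ratios of means and counting intervals (95%) and the floor of 3 reads cover counting error only. KRAB boxes and fingers were found in translated Ensembl 65 transcripts. Alternatives were other pseudocounts, filters and scalings, edgeR, DESeq2 1.42.0, a replicate block, 1 fit of all groups, averaging of near-identical libraries and leaving out each library; leaving out 2-cell KO embryos 2 and 7 was added after seeing the data. Named were, per comparison, up to 12 members each way with the smallest p among those called with a log2 change of at least 0.5, all members of the functional lists, the 10 highest per WT stage, those nearest the minimum and those whose sequence is printed; Zfp558, Zfp422, Zfp74 and the cluster genes were named after their values were seen. The members and lists were chosen with earlier results of these data known. The fits were tested on simulated data.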

Additional observations from a re-analysis of the deposited data

Results flagged for a closer look

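Among 78 groups of values checked for a library far from the rest of its group, 12 had one, where chance gives about 1 in 20. WT GV oocyte 6 was the distant library in 5 of them: it was the highest for Zfp281 (41.7), Zfp644 (64.7), Zfp616 (243.6) and Zfp735 (262.5), and the lowest for Zfp296 (273). KO zygote 6 was the highest for Zfp951 (358) and Zfp68 (807). The others were WT zygote 1 for Zfp622 (0.582), WT GV oocyte 5 for Zfp599 (0.470), WT GV oocyte 7 as the lowest for Zfp106 (84.7), WT 2-cell embryo 4 for Zfp809 (178.9) and WT 2-cell embryo 7 for Zfp568 (353).

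The effect of the KO differed between zygotes and GV oocytes for 5 members by the interaction test in limma: Zfp523 (-1.53, adjusted p = 0.00861), Zfp606 (-1.23, adjusted p = 0.00299), Zfp277 (-0.63, adjusted p = 0.0439), Zfp248 (1.08, adjusted p = 0.0304) and Zfp661 (1.20, adjusted p = 0.0363), all on the log2 scale. Between 2-cell embryos and zygotes it differed for Zfp677 (-2.50, adjusted p = 0.0154).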

How the results depend on the processing

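The counts of members called moved by over 1.5 times as follows. In KO GV oocytes (0 called) a filter at 10 gave 2, size factors within the comparison 1, quantile normalisation 2, edgeR 3, DESeq2 7, and leaving out a library 0 to 13. In KO zygotes (26) no filter gave 17, 1 fit of all groups 3, and leaving out a library 14 to 38 (38 without WT zygote 5). In KO 2-cell embryos (0) 1 fit of all groups gave 73, the replicate block 1, edgeR 1, DESeq2 10, and leaving out a library 0 to 2. In KO blastocysts every alternative run gave 0, leaving out a library included (0 to 0). In KO mESCs (29) 1 fit of all groups gave 0, the replicate block 12, DESeq2 49, averaging of near-identical libraries 14, and leaving out a library 2 to 87 (31 higher and 56 lower without WT library 2, against 17 and 12 with all). In OE cells (127) 1 fit of all groups gave 2, averaging 1, and leaving out a library 95 to 173. For the interaction of zygotes and GV oocytes (5) quantile normalisation gave 3, 1 fit of all groups 0 and DESeq2 9, and for that of 2-cell embryos and zygotes (1) 1 fit of all groups gave 21, the replicate block 5, edgeR 2 and DESeq2 7; leaving out a library was not run for these. The cause of these moves was not tested. The stage comparisons stayed within 1.5 times, with 105 to 121 calls (WT) and 106 to 122 (KO) for zygotes against GV oocytes and 169 to 187 (WT) and 160 to 176 (KO) for 2-cell embryos against zygotes when a library was left out. Quantile normalisation gave 94 higher and 44 lower for KO zygotes against GV oocytes and 72 and 94 for KO 2-cell embryos against zygotes, and edgeR 101 and 65 for the last. Zfp592, at -0.37 in WT 2-cell embryos against WT zygotes, was at 0.078 under quantile normalisation. Same-numbered libraries deviated together with correlations of -0.602 to 0.299 and not in every pair of any comparison, so they share only a number; with the replicate block 19 members were called in KO zygotes, 119 in OE cells, 113 in WT zygotes and 175 in WT 2-cell embryos. Over all named genes, 207 calls were lost and 2639 kept with a library left out, and 92 lost and 149 kept in 1 fit of all groups, with the direction kept. Depth limits the low members most: 2486334 reads in a library leave a member with a few reads, and its spread wide.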
